A study of Mus musculus with 8 samples.

Results

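The mitochondrial ribosomal protein genes are the genes whose name in the array files is Mrpl or Mrps followed by a number and, in some, a letter. The name alone chose them, and 78 genes matched, 49 with an Mrpl and 29 with an Mrps symbol, of 21264 genes tested. Their levels were read in 8 left kidneys, each from 1 mouse and collected 24 h after the operation, in 4 groups of 2. Mimic mice (6 and 7) received 5 nmol of a miRNA-5100 mimic bound to polyethylenimine nanoparticles, in 200 µl through the tail vein 2 days before the injury, which was removal of the right kidney and a clamp of 45 min on the left one followed by reperfusion. Control-miRNA mice (1 and 5) received the same amount of a control miRNA in the same carrier and the same injury, IRI mice (30 and 34) had the injury with no injection, and in sham mice (1 and 4) the abdomen was opened by a midline incision and nothing more was done. All mice of the first 3 groups had therefore lost the right kidney, which sham mice kept, and removal and clamping cannot be told apart. Strain, sex and age are not given in the labels used here. The mice are numbered separately in the labels, so p-values measure the spread between these animals, estimated for each gene over all 4 groups together.

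The mitochondrial ribosome stands in the matrix at the inner membrane and makes the small set of respiratory chain and ATP synthase subunits that mitochondrial DNA encodes. Its RNA comes from mitochondrial DNA, whereas all its proteins are encoded in the nucleus, made by cytosolic ribosomes and imported. The Mrpl proteins form the large subunit, where peptide bonds are made, and the Mrps proteins the small subunit, where the mRNA is decoded. The cells of the proximal tubule, which dominate kidney RNA, depend on respiration and are rich in mitochondria. By textbook knowledge, 51 of the 78 genes encode large-subunit proteins, among them Mrps18a and Mrps30 despite their symbols, and 26 small-subunit proteins. Mrps36 is now known as a component of the 2-oxoglutarate dehydrogenase complex. Proteins classed here as having a bacterial homolog number 46, and 31 were classed as mitochondria-specific. The second class holds Mrps18a and Mrps18b, which are nevertheless relatives of a bacterial protein.

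RNA from each kidney was measured on its own 1-colour array. A level is the log2 of the processed spot signal minus the 75th percentile of its array, so 0 is the level of a fairly bright probe, and levels of different probes cannot be set against each other. Differences are in log2 units ± moderated standard error (n = 2 mice per group), and a gene was called at a Benjamini-Hochberg adjusted p under 0.05 in limma over all 21264 genes. The 78 genes had 122 probes, of which 112 were kept, and the brightest probe stood for its gene. Signals of 77 genes were well above background on all 8 arrays, and Mrpl35 on 7, so all 78 were tested. The 75th percentile signal was 305 and 239 in mimic, 495 and 410 in control-miRNA and 462 and 589 in IRI kidneys, against 401 and 469 in sham kidneys. Mimic arrays were thus the dimmest of the 8. Precision is limited by there being 2 arrays per group. All 8 arrays share 1 estimate of a gene's spread. The standard error of a comparison therefore also holds the spread within groups outside it, such as that between the mimic mice. As a check of the tissue, the proximal tubule phosphate transporter gene Slc34a1 had levels of 5.02 and 5.80 on mimic, 5.44 and 5.18 on control-miRNA and 4.89 and 5.39 on IRI arrays, against 7.74 and 7.87 on sham arrays.

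The median over the genes moved little from sham in control-miRNA and IRI kidneys and lay lower in mimic kidneys. Rises and falls of single genes cancel in such a median. On each array the median over the 78 genes of the level minus the sham mean was -0.26 and -0.27 in mimic mice, -0.06 and -0.08 in control-miRNA mice and 0.03 and 0.08 in IRI mice. Both mimic arrays lay below the other 4 injured arrays in this median, and the IRI arrays above the control-miRNA arrays. The same medians over all genes tested were 0.07 and 0.14 in mimic, -0.08 and 0.00 in control-miRNA and -0.04 and -0.09 in IRI mice. Levels on mimic arrays were below the sham mean in 56 and 55 of the 78 genes, control-miRNA levels in 45 and 44, and IRI levels in 36 and 31.

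**Figure D1:**
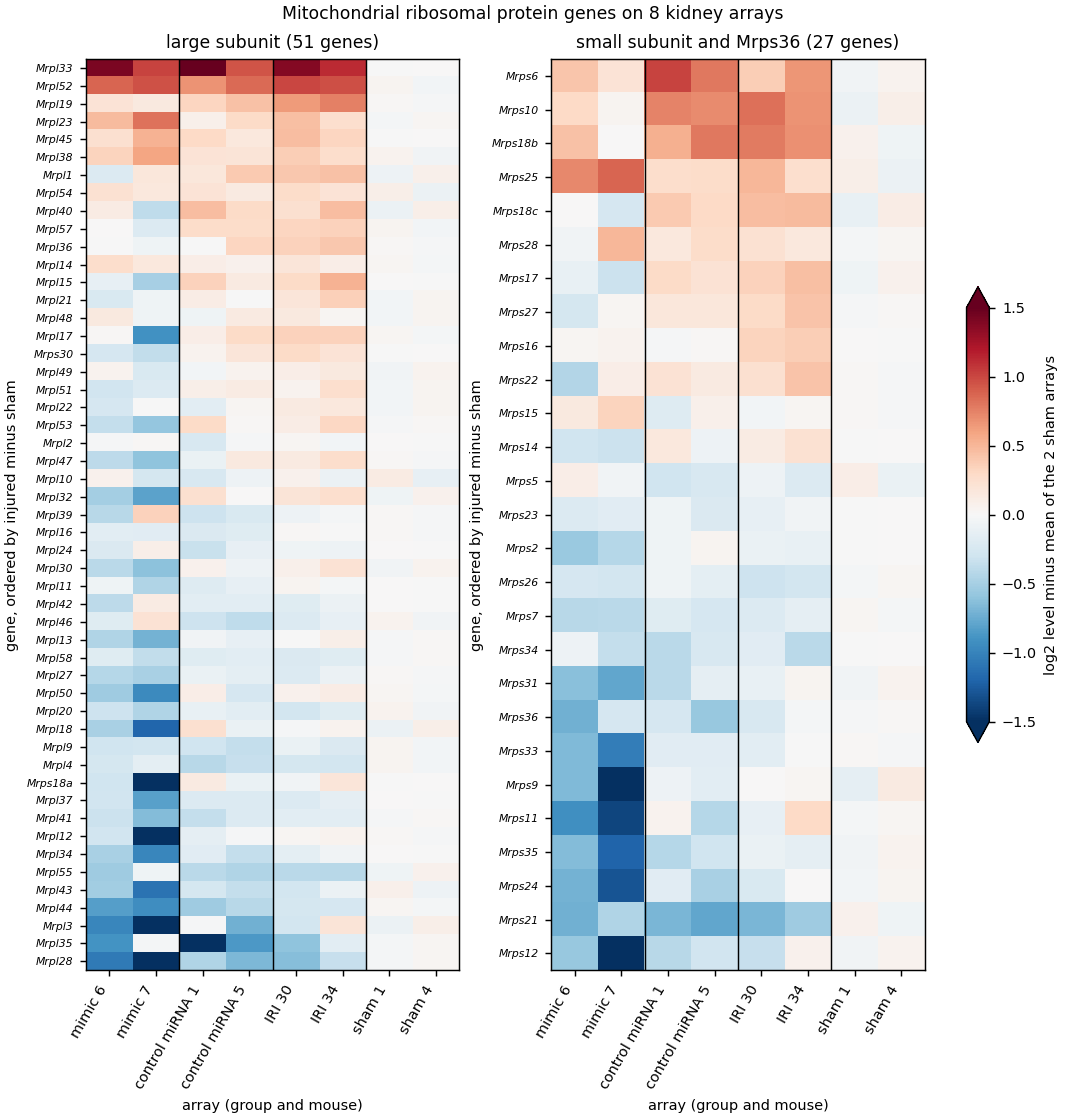
Log2 level of each of the 78 genes minus its mean on the 2 sham arrays (colour, red above and blue below sham), with 1 column per array and 1 row per gene, ordered by the mean of the injured groups minus sham. Mrpl33 and Mrpl52 lead the large subunit in red on all 6 injured arrays, and the blue cells are densest on the 2 mimic arrays, where medians were -0.26 and -0.27.

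Mrpl33 and Mrpl52 stood above sham in every injured kidney. Mrpl33, a small large-subunit protein with a bacterial homolog, had levels of 6.40 and 6.01 on mimic, 6.50 and 5.94 on control-miRNA and 6.37 and 6.11 on IRI arrays, against 4.99 and 5.00 on sham arrays. The lowest injured kidney lay well above both sham kidneys, and the 3 injured groups covered the same range. Mrpl52, a large-subunit protein without a bacterial counterpart, had levels of 5.71 and 5.79 on mimic, 5.51 and 5.69 on control-miRNA and 5.84 and 5.80 on IRI arrays, against 4.87 and 4.80 on sham arrays. Here too no injured kidney overlapped a sham one. All injured kidneys lay above both sham kidneys in 10 of the 78 members, or 12.8%, beside 17.8% of all genes. The mean of the 3 injured groups was above sham by 1.23 ± 0.20 for Mrpl33 (2.34-fold, adjusted p = 0.00652) and by 0.89 ± 0.13 for Mrpl52 (1.85-fold, adjusted p = 0.00414). Each gene was measured by 1 probe, printed below because the values of both genes rest on it. A second probe under each name stayed too dim on all 8 arrays to be kept. The Mrpl33 probe lies on the + strand at chr5:31924925-31924984 and the Mrpl52 probe on the + strand at chr14:55048507-55048566, both in mm9 coordinates of the array files.
Mrpl33 probe: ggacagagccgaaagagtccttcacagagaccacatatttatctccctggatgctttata
Mrpl52 probe: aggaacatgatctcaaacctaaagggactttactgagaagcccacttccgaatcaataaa

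Injury with no injection was set against sham to ask what the surgery changed. Of the 78 genes 5 rose and 0 fell in IRI kidneys, which is 6.41% and 0% of them, beside 9.47% of all genes higher and 8.81% lower. Apart from Mrpl33 (1.25 ± 0.24, adjusted p = 0.0175) and Mrpl52 (0.98 ± 0.15, adjusted p = 0.00892), these were Mrps10, Mrps18b and Mrpl19. Mrps10, in the head of the small subunit, had levels of 3.24 and 3.08 in IRI kidneys, against 2.33 and 2.50 in sham kidneys. Its difference was 0.75 ± 0.17 (adjusted p = 0.0286). Mrps18b, 1 of 3 mammalian relatives of a single bacterial protein, had 4.92 and 4.83 in IRI kidneys, against 4.20 and 4.08 in sham kidneys. The difference of 0.74 ± 0.20 passed narrowly (adjusted p = 0.0482). Mrpl19, at the face of the large subunit that meets the small one, had 0.51 and 0.62 in IRI kidneys, against -0.11 and -0.15 in sham kidneys, a difference of 0.69 ± 0.15 (adjusted p = 0.0244). Mrps21, a small-subunit protein, had the largest difference downward, -0.61 ± 0.17, and missed the threshold (adjusted p = 0.0512). Over all 78 genes the median difference was 0.04, with quartiles at -0.13 and 0.33, against a median of -0.08 over all genes tested. Groups did not overlap upward in 36 and downward in 25 of the 78 genes, 46.2% and 32.1%, beside 33% and 38.7% of all genes. No call was left (0 of 78) when either IRI array or either sham array was left out, and with array brightness or the slide column as a covariate 1 gene was called. The split of 5 higher and 0 lower became 4 and 1 with quantile normalization or the deposited ratios, and 5 and 3 with normexp background correction. The share of all genes called under each alternative is not given here or in later paragraphs. Such counts thus do not show that the members were less stable than other genes.

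In control-miRNA kidneys 4 genes rose and 1 fell against sham, 5.13% and 1.28% of the 78, beside 9.49% and 7.87% of all genes. The rises were Mrpl33 (1.23 ± 0.24, adjusted p = 0.0196), Mrps6 (0.90 ± 0.19, adjusted p = 0.0222), Mrpl52 (0.76 ± 0.15, adjusted p = 0.0209) and Mrps10 (0.73 ± 0.17, adjusted p = 0.0326). Mrps6, on the platform of the small subunit, had levels of 5.28 and 5.06 in control-miRNA kidneys, against 4.21 and 4.33 in sham kidneys, and 4.63 and 4.93 in IRI kidneys, which lay between. Mrps21 fell by 0.73 ± 0.17 (adjusted p = 0.0316), with 5.48 and 5.38 in control-miRNA kidneys, against 6.22 and 6.10 in sham kidneys. The median over the 78 genes was -0.07, against -0.05 over all genes, and 44 of the 78 differences were below 0, beside 53.7% of all genes. Mrpl35 had the largest downward difference of the members here, -1.21 ± 0.36, and was not called (adjusted p = 0.0604). It was the dimmest member, with levels of -4.69 and -3.99 in control-miRNA kidneys, against -3.16 and -3.10 in sham kidneys. The count of 5 called genes became 8 without mimic 6 or without mimic 7, 3 without IRI 30 or without IRI 34, 2 without control-miRNA 5, and 0 without control-miRNA 1 or either sham array. Normexp background correction turned the split of 4 higher and 1 lower into 5 and 3.

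Mimic kidneys differed from sham in more members, and mostly downward. Of the 78 genes 4 rose and 15 fell, 5.13% and 19.2%, beside 14.9% of all genes higher and 13% lower. The 19 calls were 24.4% of the members, beside 27.9% of all genes called. The median over the members was -0.25, against 0.10 over all genes tested. The genes that rose were Mrpl33 (1.21 ± 0.24, adjusted p = 0.0147), Mrpl52 (0.91 ± 0.15, adjusted p = 0.00877), Mrps25 (0.80 ± 0.17, adjusted p = 0.0178) and Mrpl23 (0.65 ± 0.19, adjusted p = 0.0452). Mrps25, a mitochondria-specific small-subunit protein, had levels of 4.55 and 4.70 in mimic kidneys, against 3.92 and 3.74 in sham kidneys. Mrpl23, at the exit of the peptide tunnel, had 4.78 and 5.13 in mimic kidneys, against 4.28 and 4.34 in sham kidneys.

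Among the 15 genes lower in mimic than in sham kidneys, Mrpl28 had the largest difference, -1.85 ± 0.46 (3.60-fold lower, adjusted p = 0.0287). Its mimic mice were far apart, at 0.68 and -0.90, against 1.71 and 1.77 in sham kidneys. Mrpl3, whose protein reaches toward the peptidyl transferase centre, had 1.57 and 0.72 in mimic kidneys, against 2.46 and 2.63 in sham kidneys (-1.40 ± 0.36, adjusted p = 0.0309). Mrps11, which lines the exit of the mRNA path, had -0.42 and -0.89 in mimic kidneys, against 0.47 and 0.52 in sham kidneys (-1.15 ± 0.26, adjusted p = 0.0209). Mrps9, whose tail touches the transfer RNA, had 0.45 and -0.51 in mimic kidneys, against 0.98 and 1.26 in sham kidneys (-1.15 ± 0.31, adjusted p = 0.0349). In all 4 genes both mimic kidneys lay below both sham kidneys, as in 43 of the 78 members, or 55.1%, beside 30% of all genes. Mrpl44, a protein related to ribonuclease III that sits near the tunnel exit, had closely matched pairs, 1.45 and 1.34 in mimic kidneys against 2.30 and 2.25 in sham kidneys. Its difference of -0.88 ± 0.15 had the smallest adjusted p of the falls (0.00893). Mrps24 had 2.51 and 1.92 in mimic kidneys, against 3.18 and 3.26 in sham kidneys (adjusted p = 0.0252). Mrps35 differed by -0.93 ± 0.21 and Mrps33 by -0.85 ± 0.18, with adjusted p of 0.0213 and 0.0176. By its other kept probes Mrps33 differed by -0.29 and -0.65. The other 7, Mrpl43, Mrpl50, Mrpl34, Mrps31, Mrpl32, Mrpl13 and Mrps21, ranged from -0.82 to -0.58.

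The mimic calls changed when single arrays were left out or array brightness was added to the fit. Without mimic 7, without IRI 30 or without IRI 34 the count of 19 became 10, and without either sham array it became 0. With array brightness as a covariate 0 members were called and the median was -0.17. Mimic arrays were also the dimmest, so brightness and the mimic cannot be told apart in any mimic comparison. The mimic mice also differed from each other more than the mice of other groups. Mimic 6 exceeded mimic 7 by more than 1 log2 unit in 4 of the 78 members and fell below it by as much in 0. No member differed by that much within the other groups. Over all genes tested 5.29% differed by more than 1 upward and 6.16% downward between the mimic mice, so the upward count of members was near the share of all genes. The 4 members were Mrps12 with 3.29 and 1.24, Mrpl28 with 0.68 and -0.90, Mrpl12 with 4.79 and 3.28, and Mrps18a with 2.92 and 1.53 in mimic 6 and mimic 7. Mrpl12, Mrps12 and Mrps18a were not called in mimic against sham, with differences of -1.03 ± 0.43, -1.60 ± 0.58 and -0.99 ± 0.41.

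When the 3 injured groups were averaged and set against sham, 6 members were called higher and 2 lower, 7.69% and 2.56%, beside 13.4% and 12.2% of all genes. Besides Mrpl33 and Mrpl52, the higher ones were Mrps6 (0.57 ± 0.15, adjusted p = 0.0343), Mrps10 (0.55 ± 0.14, adjusted p = 0.0298), Mrps25 (0.48 ± 0.14, adjusted p = 0.0449) and Mrpl19 (0.42 ± 0.12, adjusted p = 0.0488). Mrps10 overlapped between injured and sham kidneys, since mimic 7 had 2.45 and sham 4 had 2.50, and the other 7 called genes did not. Over the 78 members injured and sham kidneys did not overlap upward in 10, or 12.8%, and downward in 18, or 23.1%. Beside these stand 17.8% of all genes in each direction. The lower ones were Mrps21 (-0.64 ± 0.14, adjusted p = 0.0175) and Mrpl44 (-0.54 ± 0.12, adjusted p = 0.0203). The median over the 78 genes was -0.12, against -0.01 over all genes. Without single arrays the count of 8 became 22 (mimic 6), 13 (mimic 7), 4 (control-miRNA 1), 5 (control-miRNA 5), 2 (IRI 30), 3 (IRI 34) and 0 (either sham). These comparisons share the sham arrays, so members called in several of them are not independent repeats.

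**Figure D2:**
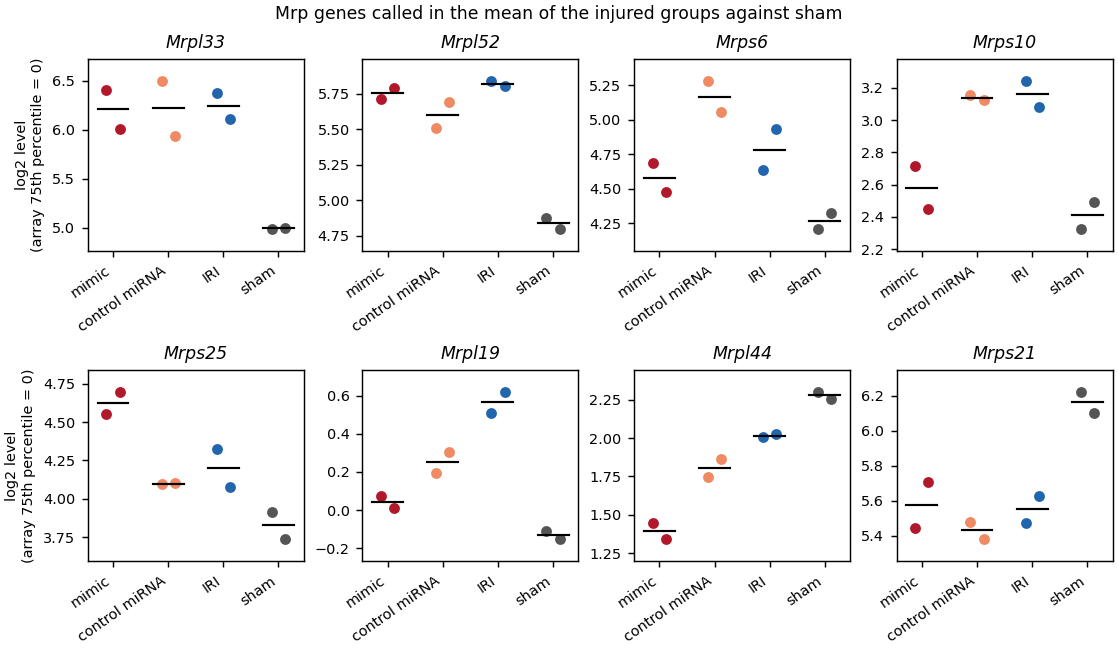
Log2 level on each array (points, array 75th percentile = 0) and group mean (line, n = 2 mice) of the 8 genes called in the mean of the injured groups against sham, with groups mimic, control miRNA, IRI and sham from left to right and a y axis of its own for each gene. Mrpl33 lies between 5.94 and 6.50 in all injured kidneys and at 4.99 and 5.00 in sham, and Mrps21 lies above all injured kidneys in sham, at 6.22 and 6.10.

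The mimic was next set against injury with no injection, a pair of groups that also lay in different slide rows. In this comparison 0 members rose and 14 fell, 17.9% of the 78, beside 9.85% of all genes higher and 5.59% lower. The median was -0.38 over the members and 0.09 over all genes tested. Mrpl3 had 1.57 and 0.72 in mimic kidneys, against 2.27 and 2.74 in IRI kidneys (-1.36 ± 0.36, adjusted p = 0.0490). Mrps11 had -0.42 and -0.89 in mimic kidneys, against 0.37 and 0.80 in IRI kidneys (-1.24 ± 0.26, adjusted p = 0.0389). Mrps9 had 0.45 and -0.51 in mimic kidneys, against 1.12 and 1.15 in IRI kidneys (-1.17 ± 0.31, adjusted p = 0.0489). Mrpl32, whose precursor is trimmed by the m-AAA protease before it can enter the large subunit, had 1.81 and 1.52 in mimic kidneys, against 2.51 and 2.57 in IRI kidneys (-0.87 ± 0.18, adjusted p = 0.0389). The gene of 1 subunit of that protease, Afg3l2, was lower as well (-0.72 ± 0.17, adjusted p = 0.0404). Mrpl50, Mrps35, Mrps33 and Mrpl47 differed by -0.83, -0.81, -0.76 and -0.69, and Mrpl53, Mrpl30, Mrps31, Mrpl13, Mrpl44 and Mrps17 by -0.68 to -0.61. By its other kept probes Mrps33 differed by only -0.14 and -0.07. In all 14 genes both mimic kidneys lay below both IRI kidneys. Over the 78 genes that was so in 53, or 67.9%, beside 29.5% of all genes, and the reverse in 5, or 6.41%, beside 37.8% of all genes. An unadjusted p under 0.05 was found in 37 members, beside 39.7% of all genes. The 14 calls lay near the threshold (adjusted p between 0.0389 and 0.0493). They became 32 without mimic 6 and 0 without any other single array, and 0 with array brightness, array weights or slide column in the fit.

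Mimic against control miRNA is the comparison in which carrier and injection are shared. No member was called, and none of the 21264 genes (0% in both directions by limma), while 27 of the 78 members and 33.8% of all genes had an unadjusted p under 0.05. The median was -0.26 over the members and 0.07 over all genes. Mrpl32 came nearest, with 1.81 and 1.52 in mimic kidneys, against 2.55 and 2.32 in control-miRNA kidneys (-0.77 ± 0.18, adjusted p = 0.0670). Mrps33 differed by -0.68 ± 0.18 (adjusted p = 0.0709) and Mrps11 by -0.96 ± 0.26 (adjusted p = 0.0710). By its other kept probes Mrps33 differed by 0.02 and 0.03, so its fall rests on the probe used. Upward, Mrps25 differed by 0.53 ± 0.17 (adjusted p = 0.0916), Mrpl23 by 0.46 ± 0.19 (adjusted p = 0.142) and Mrpl35 by 0.74 ± 0.36 (adjusted p = 0.188). Both mimic kidneys lay below both control-miRNA kidneys in 44 members, or 56.4%, beside 26.3% of all genes, and above them in 12, or 15.4%, beside 32.7%. Leaving out mimic 6 put mimic 7 alone in its group, so calls from that fit are not read as a result here. With brightness as a covariate the median was -0.06.

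Control miRNA against IRI, which differ by the injection and also by slide row, gave no call among the members or among all genes (0% in both directions by limma). An unadjusted p under 0.05 was found in 1 member, Mrps16, and in 4.06% of all genes. Mrps16, a small-subunit protein with a bacterial homolog, had 5.02 and 5.05 in control-miRNA kidneys, against 5.37 and 5.40 in IRI kidneys (-0.35 ± 0.14, adjusted p = 0.999). Differences were small but of like sign, since 69 of the 78 members were lower in control-miRNA kidneys, beside 48.6% of all genes, with a median of -0.13 against 0.01 over all genes. Both control-miRNA kidneys lay below both IRI kidneys in 40 members, or 51.3%, beside 15.5% of all genes, and above them in 4, or 5.13%, beside 17% of all genes. Of the 78 differences, 77 were smaller than 0.5 in size, and the other, of Mrpl35, was -0.82 ± 0.36. The SD between replicate arrays of the members' median was 0.08.

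**Figure D3:**
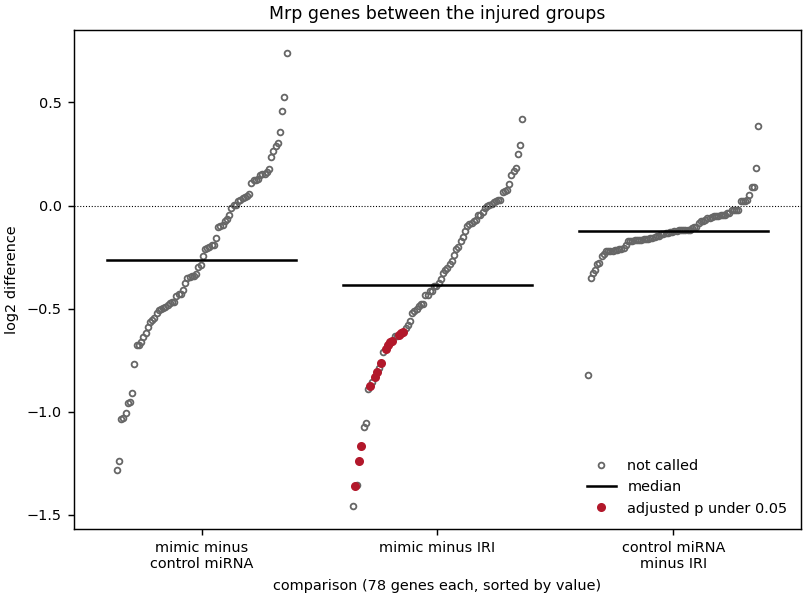
Log2 differences of the 78 genes between the injured groups (y axis), each gene a point and sorted by value within a comparison, with filled points for adjusted p under 0.05 and a line at the median. Medians were -0.26 for mimic minus control miRNA, -0.38 for mimic minus IRI, where 14 genes passed, and -0.13 for control miRNA minus IRI.

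Genes of both subunits were among those called. In mimic against sham 3 of the 51 large-subunit genes rose and 8 fell (median -0.26), and 1 of the 26 small-subunit genes rose and 7 fell (median -0.21). In mimic against IRI 8 large-subunit and 6 small-subunit genes fell, with medians of -0.33 and -0.48. Genes with a bacterial homolog and mitochondria-specific genes had medians of -0.40 and -0.38 in that comparison, with 8 of 46 and 6 of 31 lower. In IRI against sham the medians were 0.03 and 0.09. The split by subunit or by origin was not tested.

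The ribosome's working parts hold few genes each, and where any gene was called at all, 15.4% to 27.9% of all genes were called, so that counts of 0 among 3 or 6 genes say little. Of the stalk genes, whose proteins recruit translation factors, none was called in any comparison (0 of 3 in limma). Mrpl10, the anchor of the stalk, had 1.95 and 1.63 in mimic, 1.65 and 1.81 in control-miRNA and 1.95 and 1.80 in IRI kidneys, against 2.02 and 1.77 in sham kidneys. Mrpl11 at its base had 4.48 and 4.09 in mimic, 4.35 and 4.43 in control-miRNA and 4.59 and 4.52 in IRI kidneys, against 4.56 and 4.54 in sham kidneys. Mrpl12, the flexible arm that also binds mitochondrial RNA polymerase, had 4.79 and 3.28 in mimic, 4.93 and 5.05 in control-miRNA and 5.10 and 5.12 in IRI kidneys, against 5.08 and 5.05 in sham kidneys. Both mimic kidneys thus lay below all others, mimic 7 by far more than mimic 6. Mrps12 of the decoding centre showed the same picture, with 3.29 and 1.24 in mimic, 3.44 and 3.57 in control-miRNA and 3.51 and 3.93 in IRI kidneys, against 3.81 and 3.91 in sham kidneys. Of the 7 tunnel exit genes Mrpl23 rose and Mrpl44 fell in mimic against sham, and Mrpl44 and Mrpl47 fell in mimic against IRI. Mrpl45, which ties the ribosome to the inner membrane, had 3.57 and 3.85 in mimic, 3.63 and 3.48 in control-miRNA and 3.79 and 3.65 in IRI kidneys, against 3.32 and 3.34 in sham kidneys. All its injured kidneys lay above sham, but it was not called (0.33 ± 0.14 for the injured mean). No gene of the central protuberance, the large subunit's contact with the head of the small one, passed in any comparison (0 of 6 in limma).

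The 3 paralogs Mrps18a, Mrps18b and Mrps18c, take different places in the ribosome. In IRI against sham Mrps18b rose, while Mrps18c differed by 0.47 ± 0.17 (adjusted p = 0.106) and Mrps18a by 0.06 ± 0.41. In mimic against IRI they differed by -1.05 ± 0.41 (Mrps18a), -0.51 ± 0.20 (Mrps18b) and -0.59 ± 0.17 (Mrps18c), none of them called. Mrps30 and Mrpl37, related mitochondria-specific proteins of the large subunit, differed by -0.56 ± 0.15 and -0.38 ± 0.20 in mimic against IRI and were not called (adjusted p = 0.0512 for Mrps30). Mrpl41, Mrpl39, which resembles a threonyl-tRNA synthetase, Mrps27, a pentatricopeptide repeat protein, and Mrps36 were not called in any comparison either. Their differences from sham lay between -0.49 and 0.36.

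Of the mitoribosome proteins whose symbols fall outside the name rule, 5 were measured: Dap3, Ptcd3, Chchd1, Aurkaip1 and Gadd45gip1. None was called in IRI or control-miRNA against sham (0 of 5 in limma), and Ptcd3, an RNA-binding small-subunit protein, fell in mimic against sham (-0.60 ± 0.16, adjusted p = 0.0373). Their median in mimic against IRI was -0.05, with Chchd1 at -0.93 and Gadd45gip1 at 0.64, neither called.

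The other steps of mitochondrial gene expression were described from lists of genes. Counts in these and later lists stand beside the shares over all genes tested. Against sham, 9.47% of all genes rose and 8.81% fell in IRI, and 9.49% and 7.87% in control-miRNA kidneys. In mimic kidneys 14.9% rose and 13% fell. Among 15 translation factors 0 were called in IRI or control-miRNA against sham, and 1 rose and 7 fell in mimic against sham (median -0.47). The fallers included the elongation factor genes Gfm1 (-1.32 ± 0.24, adjusted p = 0.0104) and Tufm (-0.65 ± 0.15, adjusted p = 0.0230), and the riser was the initiation factor gene Mtif2 (1.02 ± 0.26, adjusted p = 0.0298). Among 20 genes for charging mitochondrial transfer RNAs 8 fell in mimic, 2 in control-miRNA and 2 in IRI kidneys against sham, with medians of -0.58, -0.22 and -0.12 and 0 rises. Gatb, a subunit of the enzyme that makes glutaminyl-tRNA, was lower in all 3, with differences of -1.57 ± 0.17 (mimic), -1.31 ± 0.17 (control miRNA) and -0.90 ± 0.17 (IRI) and adjusted p of 0.00241, 0.00492 and 0.0150. Of 26 genes for ribosome assembly and ribosomal RNA modification 0 passed in IRI, 2 fell in control-miRNA, and 6 fell and 1 rose in mimic kidneys against sham. Ddx28, an RNA helicase of large-subunit assembly, differed by -1.34 ± 0.31 in mimic against sham (adjusted p = 0.0223) and by -1.61 ± 0.31 in mimic against IRI (adjusted p = 0.0389). Of 12 genes for mitochondrial DNA and its transcription 1, 0 and 3 fell in IRI, control-miRNA and mimic kidneys against sham. Tfam, which packages mitochondrial DNA and starts its transcription, had 0.38 and -0.77 in mimic, 1.42 and 0.99 in control-miRNA and 1.12 and 1.45 in IRI kidneys, against 1.14 and 1.31 in sham kidneys. It was lower in mimic kidneys than in IRI kidneys (-1.48 ± 0.37, adjusted p = 0.0461) and sham kidneys (-1.42 ± 0.37, adjusted p = 0.0333). Of 23 protein import genes 2 rose in IRI, 1 rose in control-miRNA, and 1 rose and 3 fell in mimic kidneys against sham, with medians of 0.09, 0.08 and -0.25. In mimic against IRI the Mrp median of -0.38 stood beside -0.30 for translation factors and -0.49 for transfer RNA charging. Assembly had -0.50, mitochondrial DNA and its transcription -0.44 and protein import -0.36. The respiratory chain genes had -0.17 and the cytosolic ribosomal protein genes -0.01 there.

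The nuclear genes of the respiratory chain and the cytosolic ribosomal protein genes lay on either side of the Mrp genes. Of 76 respiratory chain and ATP synthase genes 0 rose and 39 fell in mimic, 0 rose and 21 fell in control-miRNA, and 1 rose and 8 fell in IRI kidneys against sham, with medians of -0.61, -0.54 and -0.46. Their signals relative to the array's 75th percentile summed to 5895 to 6811 in mimic, 6218 to 6483 in control-miRNA and 6731 to 6859 in IRI kidneys, against 9171 to 9307 in sham kidneys. Of 83 cytosolic ribosomal protein genes 39 rose and 1 fell in mimic, 18 rose and 0 fell in control-miRNA, and 18 rose and 0 fell in IRI kidneys against sham, with medians of 0.52, 0.51 and 0.53. Summed signals of the 78 Mrp genes were 1087 to 1143 in mimic, 1209 to 1229 in control-miRNA and 1279 to 1301 in IRI kidneys, against 1199 to 1206 in sham kidneys. The range of mimic kidneys was thus below that of sham kidneys, and those of control-miRNA and IRI kidneys above it. In control-miRNA kidneys the sum, which the brightest probes dominate, and the median difference (-0.07) lay on opposite sides of sham.

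**Figure D4:**
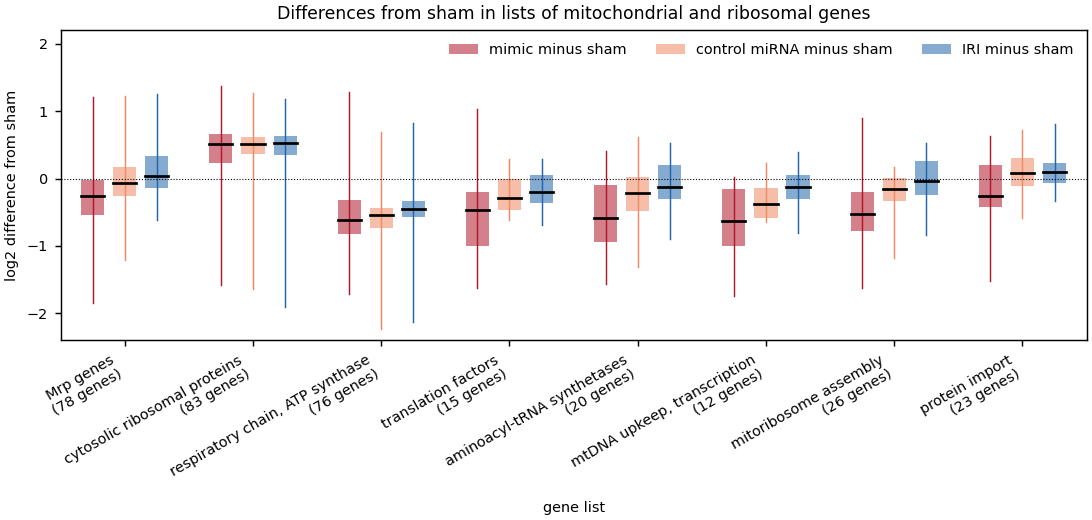
Log2 differences from sham of the genes in 8 lists (y axis), for mimic, control-miRNA and IRI kidneys from left to right within a list, with boxes from the first to the third quartile, a black line at the median and thin lines from the lowest to the highest gene. Mrp medians of -0.25, -0.07 and 0.04 lie between those of the respiratory chain (-0.61, -0.54 and -0.46) and those of cytosolic ribosomal proteins (0.52, 0.51 and 0.53).

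Cell type markers moved with these groups. Of 8 proximal tubule markers 7 fell in each injured group against sham, and their summed signal was 207 to 277 in mimic, 247 to 292 in control-miRNA and 271 to 280 in IRI kidneys, against 799 to 813 in sham kidneys. Fewer cells of a type and less RNA per cell cannot be told apart in whole kidney. Of 6 neutrophil markers 4 rose in each injured group, and their summed signal was 74.6 to 99.2 in mimic, 50.4 to 63.9 in control-miRNA and 45.5 to 51.4 in IRI kidneys, against 45.9 to 51.3 in sham kidneys. In mimic against IRI 5 of 6 fibroblast and pericyte markers and 3 of 6 endothelial markers rose, beside 9.85% of all genes. The summed fibroblast and pericyte signal was 59.9 to 64.7 in mimic and 24.2 to 37.7 in control-miRNA kidneys, against 16.0 to 21.0 in IRI and 16.4 to 19.0 in sham kidneys. The part of any of these shifts in the Mrp differences was not tested.

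Of 13 regulators of nuclear genes for mitochondria 4 rose and 1 fell in mimic, 4 rose and 0 fell in control-miRNA, and 3 rose and 0 fell in IRI kidneys against sham, with medians of 0.09, 0.23 and 0.26. Myc, which drives ribosome production, had levels of -0.22 and -0.75 in mimic, 0.34 and 0.12 in control-miRNA and 0.25 and 0.69 in IRI kidneys, against -3.26 and -2.58 in sham kidneys. It was higher than in sham by 2.43 ± 0.30, 3.15 ± 0.30 and 3.39 ± 0.30 (adjusted p of 0.00369, 0.00216 and 0.00148). Pprc1, a relative of PGC-1 alpha induced by growth signals, was higher by 1.44 ± 0.16, 1.37 ± 0.16 and 1.76 ± 0.16 in the same 3 groups (adjusted p of 0.00248, 0.00357 and 0.00146). Ppargc1a, which encodes PGC-1 alpha, the main coactivator of mitochondrial biogenesis, had 2.01 and 3.32 in mimic, 1.96 and 2.25 in control-miRNA and 2.10 and 1.93 in IRI kidneys, against 3.39 and 3.44 in sham kidneys. It passed for the mean of the injured groups only (-1.16 ± 0.32, adjusted p = 0.0392), and mimic 7 lay close to sham. Nrf1, nuclear respiratory factor 1, differed from sham by 0.06 to 0.11 and was not called. Gabpa, the DNA-binding subunit of nuclear respiratory factor 2 and a member of the ETS family, fell in mimic against sham (-0.82 ± 0.23, adjusted p = 0.0392). Esrra, an orphan receptor that works with PGC-1 alpha, differed from sham by -0.44, -0.58 and -0.70 in mimic, control-miRNA and IRI kidneys and was not called. Atf5, a factor of the mitochondrial stress response, was higher than in sham in all 3 groups and higher in mimic than in IRI kidneys (1.48 ± 0.32, adjusted p = 0.0392).

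The promoters of the members were searched for words of 3 factors known to bind such genes. RefSeq windows from 250 bases before to 50 after the start (GRCm38.p6) were held for 69 of the 78 genes, and each word was searched on both strands. The ETS word CCGGAAG was found in 26 of the 69 genes (37.7%), beside 12.9% of 17492 protein-coding genes. The YY1 word AAGATGGC was found in 12 (17.4%, beside 3.57%) and the NRF1 word GCATGCGC in 8 (11.6%, beside 3.94%). Hits of different words overlapped in 0 cases. By contrast TATAAA was found in 5 of the 69 (7.25%), beside 14.8% of protein-coding genes, and the Myc word CACGTG in 5 (7.25%), beside 8.91%. The 26 genes with the ETS word had a median difference of 0.12 in IRI against sham and the 43 without it of 0.01, and in mimic against IRI the medians were -0.46 and -0.33. No test was made of these splits, and a word is a run of letters, not a shown binding site.

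Promoters of 3 genes that rose in IRI kidneys and of Mrps21, which was lower than sham in control-miRNA and mimic kidneys, are given as examples of windows that hold the ETS word. Of the other genes that rose in IRI kidneys, Mrps10 has none of the 3 words in its window, and Mrpl19 was not matched. Capitals mark ETS and NRF1 words, in either direction. The windows are chr5:31613701-31614000 on the + strand for Mrpl33, chr14:54426659-54426958 on the + strand for Mrpl52, chr17:35916391-35916690 on the - strand for Mrps18b and chr3:95871465-95871764 on the - strand for Mrps21.
Mrpl33 promoter: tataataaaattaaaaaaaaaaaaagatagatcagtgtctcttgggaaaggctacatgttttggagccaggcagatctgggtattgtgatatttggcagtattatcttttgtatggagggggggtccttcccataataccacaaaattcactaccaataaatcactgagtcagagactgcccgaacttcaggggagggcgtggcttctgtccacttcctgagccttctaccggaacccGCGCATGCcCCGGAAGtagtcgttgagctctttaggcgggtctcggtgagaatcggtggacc
Mrpl52 promoter: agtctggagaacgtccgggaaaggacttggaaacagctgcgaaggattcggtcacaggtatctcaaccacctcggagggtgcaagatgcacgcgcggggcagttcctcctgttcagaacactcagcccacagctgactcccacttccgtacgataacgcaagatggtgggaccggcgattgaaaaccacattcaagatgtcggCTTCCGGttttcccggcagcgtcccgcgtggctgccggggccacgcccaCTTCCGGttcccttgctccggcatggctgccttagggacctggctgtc
Mrps18b promoter: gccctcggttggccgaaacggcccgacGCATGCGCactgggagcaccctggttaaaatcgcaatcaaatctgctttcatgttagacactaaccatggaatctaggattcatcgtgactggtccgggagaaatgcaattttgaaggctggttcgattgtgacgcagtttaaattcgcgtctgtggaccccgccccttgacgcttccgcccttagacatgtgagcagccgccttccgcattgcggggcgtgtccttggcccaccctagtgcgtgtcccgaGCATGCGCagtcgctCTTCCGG
Mrps21 promoter: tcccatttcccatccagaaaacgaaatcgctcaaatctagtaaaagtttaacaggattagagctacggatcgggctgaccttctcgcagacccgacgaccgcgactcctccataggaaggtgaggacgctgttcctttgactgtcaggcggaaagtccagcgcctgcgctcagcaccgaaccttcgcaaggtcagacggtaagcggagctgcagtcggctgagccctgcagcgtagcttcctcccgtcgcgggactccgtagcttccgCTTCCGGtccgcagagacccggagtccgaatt
Mrpl33 has 1 NRF1 word and 1 ETS word, Mrpl52 has 2 ETS words, Mrps18b has 2 NRF1 words and 1 ETS word, and Mrps21 has 1 ETS word.

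Probes for the same gene did not always move together. In IRI against sham, kept probes of Mrpl10, Mrpl44, Mrpl47, Mrpl48, Mrps23, Mrps31, Mrps5 and Mrps9 gave opposite signs, mostly with values near 0. The widest gap was in Mrpl48, at 0.09 for its brightest probe and -1.12 for a dim probe that was above background on 5 arrays. In the mean of the injured groups against sham, signs differed in Mrpl1, Mrpl13, Mrpl24, Mrpl38, Mrpl48, Mrps18a and Mrps31. Mrpl13 had -0.21 by its main probe and 0.57 by a dim one, and its calls in mimic kidneys turned sign when probes were averaged, to 0.21 against sham and 0.03 against IRI.

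For 21 members, the most upstream (5') and most downstream (3') kept probes for the RefSeq mRNA were compared, a split chosen after the values were seen. Their positions on the genome lay at least 100 bases apart. Probes were not placed within the transcript, so both probes of a pair may lie near the same end. In IRI against sham the paired probes gave nearly the same medians, 0.02 at both the 5' and the 3' probe. In mimic against IRI the median was -0.59 at the 5' probes and -0.31 at the 3' probes, and the 5' probe was the lower one in 14 of 21 genes. Over 5266 genes with such pairs the 5' probe was lower in 47.0%, with a median gap of 0.07. The count was also 14 of 21 in control-miRNA against sham and against IRI, beside 56.9% and 61.9% of all pairs. It was 12 of 21 in mimic against sham, beside 44.3% of all pairs. The members' median gap was -0.34 in mimic against IRI and -0.41 in mimic against sham, but -0.07 in control-miRNA against sham and -0.05 in control-miRNA against IRI. Over all pairs the median gaps were 0.07, 0.11, -0.05 and -0.06 in that order. Relative to sham, the members' median gap of 5' minus 3' was -0.18 and -0.59 in mimic 6 and mimic 7, -0.02 and -0.12 in control-miRNA and -0.07 and 0.09 in IRI kidneys. Over all pairs it was 0.19 and 0.01 in mimic, -0.06 and -0.04 in control-miRNA and 0.01 and 0.02 in IRI kidneys. Among the members mimic 7 thus had the widest gap. In mimic against IRI the widest gap of a single gene was in Mrpl38, at -1.25 by its 5' and 0.15 by its 3' probe. Mrps18b had the lowest 5' difference in that comparison, -1.67. The 3' probe that stood for the gene, which overlaps the 3' probe of its pair, had 4.58 and 4.15 in mimic, 4.68 and 4.93 in control-miRNA and 4.92 and 4.83 in IRI kidneys, against 4.20 and 4.08 in sham kidneys. Its 5' probe had -0.89 and -1.80 in mimic, 0.03 and -0.21 in control-miRNA and 0.16 and 0.48 in IRI kidneys, against -0.68 and -0.51 in sham kidneys. In mimic kidneys the 3' probe overlapped sham (4.15 in mimic 7) and the 5' probe lay below it, while in IRI kidneys both were above. The part of probe position in the mimic differences of other members was not tested. The probes lie on the - strand at chr17:36047331-36047390 (3') and, across an exon junction, within chr17:36051313-36051461 (5'), in mm9.
Mrps18b 3' probe: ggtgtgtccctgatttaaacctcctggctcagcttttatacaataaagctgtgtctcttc
Mrps18b 5' probe: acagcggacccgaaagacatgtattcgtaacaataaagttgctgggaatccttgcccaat

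**Figure D5:**
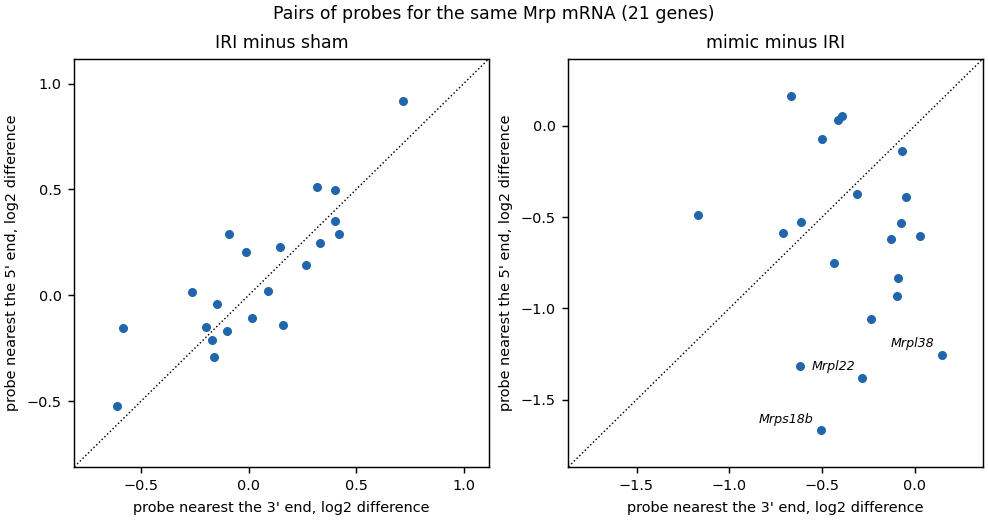
Log2 differences of 21 Mrp genes by the most downstream (3') kept probe (x axis) and the most upstream (5') kept probe (y axis), by position on the genome. IRI minus sham is on the left and mimic minus IRI on the right, each point a gene and the dotted line equality. On the left 10 of 21 points lie below the line and on the right 14 of 21, beside 47.9% and 47.0% of all pairs. The count of 14 was also found in control miRNA against IRI, beside 61.9% of all pairs. On the right Mrps18b, at -1.67 by its 5' probe, is the lowest.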

How the data were processed

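Kidney RNA of 8 mice was measured on 8 1-colour Agilent arrays of 1 slide, scanned once. Per the file headers, Agilent Feature Extraction 12.0.3.1 made the deposited spot intensities, background subtracted in the processed signal used here, and the flags. The authors' deposited table holds a ratio of each probe to its median over the arrays, with array medians of 0.992 to 1.02; its earlier scaling is not stated in the labels or file headers. From the deposited intensity, log2 was taken after removing controls and outlier spots (79 to 127 per array), and the 75th percentile of each array was subtracted. Well above background were 53.2% to 58.8% of spots, and 0 were saturated. Probes well above background on every array of at least 1 group were kept (32218), and the probe with the highest mean stood for its gene. Group means were fitted to all 8 arrays with limma 3.58.1 in R 4.3.3 (lmFit, eBayes), with 7 comparisons and Benjamini-Hochberg adjustment over 21264 genes. The fit was tested on simulated data. Gene names came from the files and RefSeq tables, and probe positions (mm9) from the files.

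Named were the 8 called members with the largest difference per direction (the 3 smallest p where under 3 were called), members fixed by role, members with probes of opposite sign, and up to 3 called genes per list. The members and lists were chosen with earlier results of these data known. Uninjected mice fill slide row 1 and injected mice row 2, so row and injection cannot be told apart. Alternatives covered scaling, background, probe filter, probe choice, brightness, weights, slide column and single arrays.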

Additional observations from a re-analysis of the deposited data

Results flagged for a closer look

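Signals appeared in probes that did not stand for their gene. Another probe of Mrps18a passed over all 32218 probes in the mean of the injured groups against sham, at 0.99 higher, while the probe used gave -0.31 and was not called. Its levels were -3.39 and -3.26 in mimic, -4.38 and -4.03 in control-miRNA and -4.05 and -4.11 in IRI kidneys, against -5.19 and -4.53 in sham kidneys, well above background on 7 arrays. Another probe of Mrpl38 gave 0.75 in the same comparison, with -1.58 and -1.92 in mimic, -2.10 and -1.77 in control-miRNA and -1.92 and -1.59 in IRI kidneys, against -2.53 and -2.60 in sham kidneys.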

How the results depend on the processing

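Counts of called members moved with the processing more than their medians. They stand without the share of all genes called under the same setting, so a change in the members alone cannot be read from them. In IRI against sham the count of 5 became 8 with normexp, 2 with no filter on dim probes, 1 with brightness or slide column as covariate and 13 with array weights, and the median 0.15 with slide column. In control-miRNA against sham 5 became 8 with normexp or array weights and 1 with no filter or slide column. In mimic against sham 19 became 7 with no filter, 0 with brightness (median -0.17) and 10 with array weights. For the injured mean 8 became 2 with no filter or slide column and 20 with array weights. In mimic against control miRNA 0 became 2 with normexp and 1 with probes above background on all arrays, and the median -0.060 with brightness. In mimic against IRI 14 became 2 with quantile normalization or deposited ratios, 9 with the mean over probes, and 0 with brightness, array weights or slide column, and the median became -0.27 with quantile, normexp, deposited ratios or slide column and -0.19 with brightness. Leaving out 1 array gave counts of 0 to 6 (IRI against sham), 0 to 8 (control miRNA against sham), 0 to 28 (mimic against sham), 0 to 22 (injured mean), 0 to 29 (mimic against control miRNA), 0 to 32 (mimic against IRI) and 0 to 0 (control miRNA against IRI), with a lone array assumed to vary like the other groups. Medians then ranged over 0.03 to 0.08, -0.08 to -0.05, -0.27 to -0.23, -0.13 to -0.08, -0.29 to -0.21, -0.43 to -0.32 and -0.14 to -0.11 in that order. Of 918 values of 51 called pairs of member and comparison under 18 alternatives, 501 stayed called, 414 lost the call and 3 turned sign: Mrpl13 with the mean over probes (0.21 in mimic against sham, 0.030 in mimic against IRI) and Mrpl3 with brightness (0.43 in mimic against IRI). Other causes were not tested. No paired analysis was possible, because each kidney came from its own mouse and the labels give no pairing between groups. With 2 mice per group, a member that was not called may still differ.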
